A study of Mus musculus with 14 samples.

Results

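The K314/315R double mutant of p65 was compared with wild type p65 after 3 h of TNFα. Of the 14 arrays in the series, 5 carried this comparison: 2 of K314/315R cells and 3 of wild type cells, chosen by their labels. All cells were p65(-/-) NIH 3T3 mouse embryonic fibroblasts (MEFs), which lack the endogenous subunit and had been stably complemented by lentiviral transfer. The vector pTV carried myc-tagged p65, either wild type or with arginine in place of both lysines that the name of the mutant gives. The cells were starved overnight and then received 30 ng/ml mouse TNFα, and each array read total RNA of 1 culture in Cy3. Wild type cells without TNFα (0 h), cells with the empty vector pTV and cells with KTR, a p65 in which a further neighbouring lysine was replaced as well, were on 3 arrays each and share the fit. As models, these lines carry p65 from a lentiviral insertion and not from its own locus, and each line was a pool of cells that survived blasticidin.

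p65 (RelA) is the transactivating subunit of the NF-κB dimer that leaves IκB and enters the nucleus when a cell meets TNFα. There it binds κB sites and drives genes for cytokines, chemokines, matrix proteases, antigen presentation and its own inhibitors. Acetyltransferases such as p300 acetylate p65 at several lysines. An arginine keeps the positive charge of lysine but cannot be acetylated, so the double mutant asks which genes depend on these 2 residues in TNFα-treated fibroblasts.

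Every array carried 41174 probes, and the values below are log2 signals from which the array's own 75th percentile was subtracted. A value of 0 therefore marks a probe as bright as that percentile. The percentile was 1442 and 1086 on the K314/315R arrays and 1168 to 1228 on the 3 wild type arrays. Both K314/315R arrays lay on a slide of their own, processed by a later release of the image software, so slide and mutant cannot be told apart in any value below. The E1A spike-in controls, which hold no cellular RNA, had medians of 4.79 and 5.08 on that slide and of 3.09 to 4.02 on the others, and their part in the results was not tested. The fibroblast label was checked by its markers, and each of 11 listed fibroblast genes passed the background test on all arrays of both lines, with summed linear signals, in multiples of the percentile, of 1111 to 1288 in K314/315R and 1110 to 1266 in wild type. Of 10 macrophage and leukocyte markers, 4 to 5 were above background in K314/315R and 3 to 4 in wild type, with summed signals of 2.68 to 3.06 and 2.04 to 2.21. Epithelial markers were above background for 3 to 5 of 10 in K314/315R and 5 to 6 in wild type, skeletal muscle markers for 3 to 4 and 4 of 10, and endothelial markers for 1 and 1 to 3 of 8. In such bulk RNA, fewer cells of a type and less RNA per cell cannot be told apart.

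The brighter of the 2 mouse Rela probes read 1.52, 1.52 and 1.54 in the wild type cultures and 1.54 and 1.87 in the K314/315R cultures. The log2 difference was 0.18 (adjusted p = 0.689, limma), and the dimmer probe differed by 0.17 (adjusted p = 0.676). The pTV cells, which received no p65, averaged 1.18 at the brighter probe. No source used here says whether they lie within the introduced coding sequence, so they do not check it.

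K314/315R cells differed from wild type in far more probes that were lower than higher. Of 22172 tested probes, 37 (0.167%, of 34 gene names) were more than 1.8-fold higher and 231 (1.04%, of 224 gene names) were lower by about the same factor or more, both at an adjusted p under 0.05, and these 268 (1.21%) are the probes referred to as called. The 2 K314/315R arrays lay outside the range of the 3 wild type arrays at every called probe. Choosing probes on these same arrays largely brings this about. Of all tested probes, 19% lay wholly above and 17.2% wholly below. The median log2 ratio over all tested probes was 0.02, with a 5th percentile of -0.76 and a 95th of 0.38, so the lower tail was the longer one. How the arrays were scaled moved the split: quantile normalization called 48 higher and 66 lower, and centring each array on its median, which shifted the median of all probes to 0.29, called 242 higher and 127 lower. With slide as a random block, 15 were higher and 70 lower. Without adjustment of p, 85 (0.383%) and 685 (3.09%) passed. Without K314/315R replicate 2 the counts were 3 and 15, without wild type replicate 2 they were 4 and 25, and without K314/315R replicate 1 they were 25 and 102. Without wild type replicate 1 they were 23 and 97, and without wild type replicate 3, 18 and 177.

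Called probes were dim. The median wild type level was -2.84 for the probes called lower and -3.19 for those called higher, against -0.28 for all tested probes. When the tested probes were split into 5 equal bins by their level on the 9 arrays outside the comparison, 2.66% of the dimmest bin were called lower, and 1.33%, 0.609%, 0.361% and 0.248% in the bins above it. In the brightest bin 11 probes were called lower and 0 higher. A direct contrast with KTR, fitted with the same arrays, called 109 probes higher (0.492%) and 457 lower (2.06%), among them 22 of the 37 and 170 of the 231. Of the called probes, 26 of 37 higher and 133 of 231 lower were well above background on all 5 arrays.

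**Figure D1:**
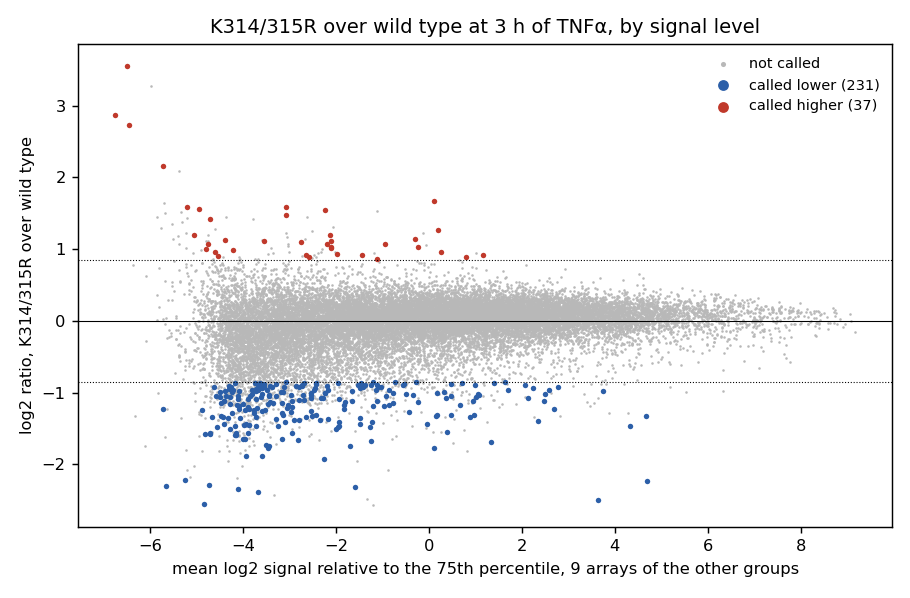
Each point is 1 tested probe, with its mean log2 signal on the 9 arrays of the other groups on the x axis and its log2 ratio of K314/315R over wild type at 3 h on the y axis. Dotted lines mark the ratios at which probes were called, and the 231 probes called lower (blue) and 37 called higher (red) lie mostly in the dim part of the range.

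The array holds several probes for many genes, which gave a second reading of the calls. Among the probes called higher, 14 had another tested probe of the same gene, and the brightest such probe was also called higher in 6 cases and lay on the same side of 0 in 13. Its median log2 ratio was 0.92, beside 1.06 for the called probes. Both probes of Nsg1, Sulf2 and Spint1 were called, and these pairs make up the 6 cases, each pair being counted from both sides. Among the probes called lower, 96 had another tested probe, which was also called in 3 cases and lay on the same side of 0 in 65, with a median of -0.06 beside -1.09. In 75 of these 96 the other probe was the brighter one. Genes with 2 probes called lower were 2810474O19Rik, Gcc2, Mier1, Smc2, Smg6 and Xrn1, and they were picked out after their values were seen. A lower call at a single dim probe was therefore in most cases not shared by the other probe of its gene. Col1a2, the gene of a type I collagen chain, is an example chosen after its values were seen: a dim probe was lower by -1.66 and the bright one read -0.02 (adjusted p = 0.979).

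**Figure D2:**
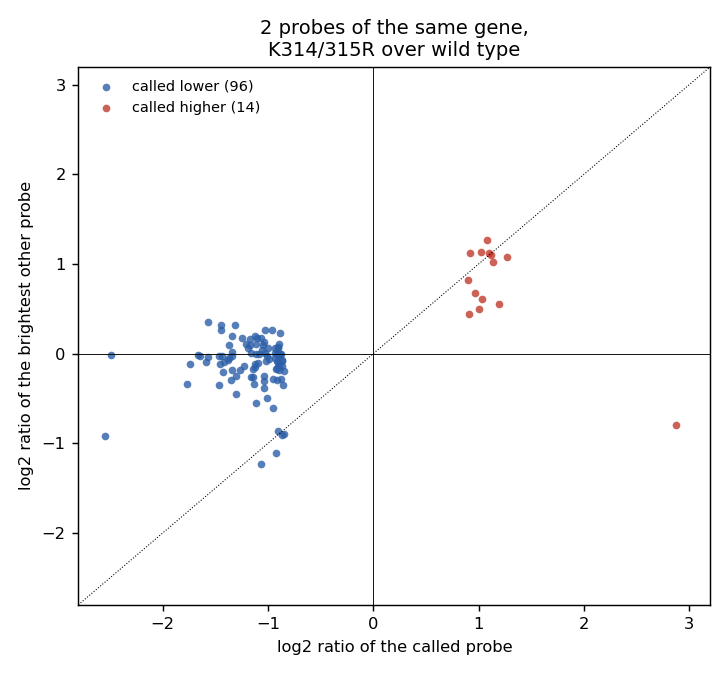
Each point is a called probe whose gene had another tested probe, with the log2 ratio of the called probe on the x axis and that of the brightest other probe on the y axis, and the dotted line marks equal ratios. The 14 probes called higher (red) lie above 0 on the y axis apart from 1 of B930011P16Rik. Several lie well below the line, such as Edg3 (1.20 and 0.56) and Ptgfr (1.01 and 0.50). The 96 called lower (blue) spread around 0 on the y axis with a median of -0.06.

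Among the genes that were higher in K314/315R, the largest ratio at a probe measured on all 5 arrays belonged to Cdkn1c, the imprinted gene of the cell cycle inhibitor p57. It read 0.11, -0.57 and -0.47 in wild type and 1.23 and 1.49 in K314/315R. The groups stood apart by more than 1 unit, and the log2 ratio was 1.67 ± 0.27 (SE), a 3.18-fold difference (adjusted p = 0.0172, limma). The KTR mean was 0.27 and the pTV mean 0.07, so that no other line reached the K314/315R level. The list of imprinted growth regulators, to which Cdkn1c belongs, had 20 tested members, of which 2 were called higher and 1 lower, with a median of 0.17. The other higher one was Igf2, the gene of insulin-like growth factor 2, at -1.29, -1.52 and -1.83 in wild type and -0.46 and -0.81 in K314/315R. Its log2 ratio was 0.91 (adjusted p = 0.0331), and a second, dimmer probe differed by 1.12 without passing the test (adjusted p = 0.115). Peg10, a retrotransposon-derived imprinted gene, was the member called lower. It read -4.11, -4.10 and -5.15 in wild type, where 2 of 3 arrays were well above background, and was not well above background on either K314/315R array, which makes it at least 1.42-fold lower (adjusted p = 0.0247). Dio3, which encodes a thyroid hormone deiodinase from the imprinted Dlk1 locus, differed by 1.45 (95% interval 0.68 to 2.22, adjusted p = 0.0574), and Meg3 of the same locus by 0.59 (adjusted p = 0.0565). Neither passed the test. The arrays of the lines did not overlap for 9 members above wild type (45%, beside 19% of all probes) and 3 below (15%, beside 17.2%). The calls of Cdkn1c, Igf2 and Peg10 were all lost without wild type replicate 2 and without either K314/315R replicate, that of Igf2 also without wild type replicate 3 and that of Peg10 without wild type replicate 1.

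Of 34 tested genes of cell death and survival, 2 were called higher and 0 lower, and their median was -0.02. Ripk3, the kinase that starts necroptosis downstream of the TNF receptor, read -0.91, -0.95 and -1.14 in wild type and 0.23 and -0.10 in K314/315R. The 3 KTR arrays read -0.84, -1.13 and -1.02 and the pTV mean was -1.03. K314/315R stood above wild type by 1.07 ± 0.17 (adjusted p = 0.0172). Aatk, a kinase named for its rise in apoptosis, read -2.56, -2.59 and -2.46 in wild type and -1.12 and -0.86 in K314/315R, a log2 ratio of 1.55 ± 0.33 (adjusted p = 0.0342). Its means were -1.75 in wild type cells before TNFα and -1.99 in pTV, and neither differed from wild type at 3 h past the threshold (adjusted p = 0.176 and 0.266). Aatk lost its call when any 1 of the 5 arrays was left out and with slide as a random block, and Ripk3 without wild type replicate 2 or either K314/315R replicate. The partners and antagonists of Ripk3 did not pass the test: Ripk1 differed by 0.34 (adjusted p = 0.625), Mlkl by -0.07 (adjusted p = 0.8), Casp8 by -0.01 (adjusted p = 0.978) and Cflar, which encodes cFLIP, by 0.42 (adjusted p = 0.559). The NF-κB-driven survival genes Birc3 and Birc2 differed by 0.10 and 0.17.

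Sulf2 and Thbs2 were called among 36 tested genes of the collagens and other extracellular matrix, and none was called lower. Sulf2 removes sulfate groups from heparan sulfate at the cell surface. Its probe with the larger ratio read -0.40, -1.11 and -0.60 in wild type and 0.55 and 0.32 in K314/315R (log2 ratio 1.14, adjusted p = 0.0487), and the second probe gave 1.03 (adjusted p = 0.0394). Thbs2, a matricellular thrombospondin, read -0.07, -0.18 and 0.04 in wild type and 0.70 and 1.09 in K314/315R (log2 ratio 0.97, adjusted p = 0.0497). The adjusted p of both genes lies close to the threshold, and they lost the call when any 1 of the 5 arrays was left out. Of the 36 members 30 had a ratio above 0. The median was 0.14, beside 0.02 for all tested probes and 0.06 and 0.07 in their 2 brightest bins. The arrays did not overlap for 13 of the members above wild type (36.1%, beside 19% of all probes). The member with the lowest ratio was Fbln5, fibulin 5, at -0.32 (adjusted p = 0.174), and the fibrillar collagens Col1a1 and Col3a1 differed by 0.04 and 0.21.

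Vnn1 encodes vanin 1, a membrane pantetheinase that releases cysteamine. It read -3.77, -3.98 and -4.25 in wild type and -2.54 and -2.33 in K314/315R, and the log2 ratio was 1.56 ± 0.19 (adjusted p = 0.00839). Its probe was not well above background on any pTV array. Smpdl3b, which encodes a membrane phosphodiesterase related to acid sphingomyelinase, read -1.84, -2.02 and -1.97 in wild type, -0.96 and -0.90 in K314/315R (log2 ratio 1.02, adjusted p = 0.0254) and averaged -2.75 in pTV. Nsg1, an endosomal protein of neurons, had a bright probe at 0.41, -0.07 and -0.26 in wild type and at 1.18 and 1.42 in K314/315R (log2 ratio 1.27, adjusted p = 0.0292). These 3 genes were above wild type on both mutant arrays, and each lost its call in some settings. Vnn1 lost it without K314/315R replicate 2 and in the fit of the 5 arrays alone, Nsg1 in 6 of 17 settings, and Smpdl3b in 9 of 17, among them leaving out any 1 of the 5 arrays and slide as a random block.

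The other genes among the 12 largest ratios at measured probes whose name is in the RefSeq table were Adamts3, a procollagen protease (1.47, adjusted p = 0.0165), Afp, alpha-fetoprotein (1.12, adjusted p = 0.0247), Lmo1, a LIM-only transcription cofactor (1.11, adjusted p = 0.0126), Spint1, an inhibitor of the hepatocyte growth factor activator (1.1, adjusted p = 0.0113), and 2010107G23Rik (1.03, adjusted p = 0.0383). H60, a ligand of the NKG2D receptor whose array name is not in that table, was also called at a measured probe (1.19, adjusted p = 0.0221). For 2010107G23Rik a second probe read 0.61 (adjusted p = 0.153), and the call was lost when any 1 of the 5 arrays was left out. Afp lost its call without wild type replicate 2 or 3 and without either K314/315R replicate. Adamts3 lost it without wild type replicate 2 or K314/315R replicate 2, and Lmo1 and Spint1 without K314/315R replicate 2. Adamts3, Afp, Lmo1 and Spint1 had a different order across lines from Vnn1. Their pTV means of -2.12, -1.57, -3.26 and -2.42 lay above their wild type means of -3.58, -2.65, -3.85 and -3.19. At 7 probes called higher, no wild type array was well above background. Of these, 5 with a gene name, taken in order of adjusted p, are given here, and they were tested only because the K314/315R arrays lay above background, so that their p-values are not independent of that choice. Hrasls3, a phospholipase gene, was there at least 2.41-fold higher in K314/315R (adjusted p = 0.000779), B930011P16Rik at least 2.33-fold, Edg3, the sphingosine 1-phosphate receptor now called S1pr3, at least 2.26-fold, 2600011E07Rik at least 1.85-fold and Atp8a1, a phospholipid flippase, at least 1.47-fold. The bound sets the K314/315R mean against the lowest signal that counted as measured on each wild type array. Where the array's own reading was higher, that reading was used. The brighter probe of B930011P16Rik read -0.80 (adjusted p = 0.467), on the other side of 0. That of Edg3 differed by 0.56 (adjusted p = 0.0672), less than the log2 bound of 1.18, and was not called. Edg3 also lost its call when any 1 of the 5 arrays was left out.

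**Figure D3:**
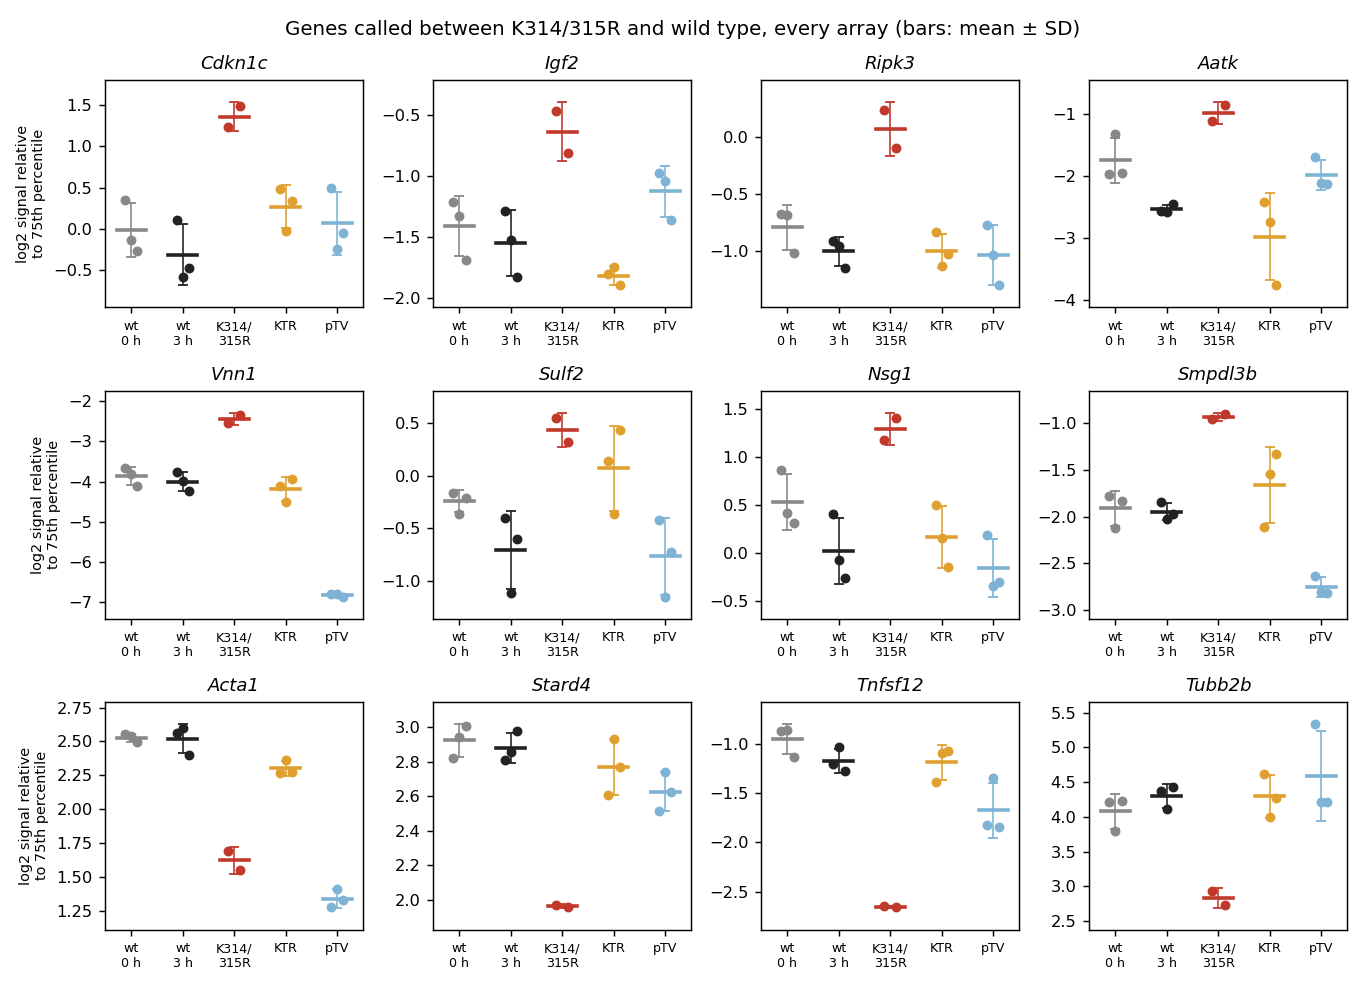
Each point is 1 array, with scaled log2 signal (0 is the 75th percentile) on the y axis, and horizontal bars with whiskers give the mean ± SD of wild type at 0 h and 3 h, K314/315R, KTR and pTV (n = 3, and 2 for K314/315R). In the upper 8 genes both K314/315R points lie above all 3 wild type points at 3 h, and in the lower 4 below them.

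Among the named genes that were lower, Tnfsf12 encodes TWEAK, a ligand of the TNF family. It read -1.21, -1.04 and -1.28 in wild type and -2.64 and -2.66 in K314/315R, a log2 ratio of -1.48 ± 0.16 (SE, adjusted p = 0.00485). Its call held in all 17 alternative settings, which were run for named genes only. Acta1, skeletal muscle alpha-actin, read 2.57, 2.60 and 2.40 in wild type and 1.69 and 1.55 in K314/315R (log2 ratio -0.90, adjusted p = 0.00396). Its K314/315R mean of 1.62 lay between the wild type mean of 2.52 and the pTV mean of 1.34. Stard4, a carrier of cholesterol between membranes, read 2.81, 2.86 and 2.98 in wild type and 1.97 and 1.96 in K314/315R (log2 ratio -0.92, adjusted p = 0.00839). Its 2 dimmer probes differed by -0.30 (adjusted p = 0.616) and -0.15 (adjusted p = 0.603). Tubb2b, a beta-tubulin, had a bright probe, at 4.37, 4.11 and 4.43 in wild type and 2.93 and 2.73 in K314/315R (log2 ratio -1.47, adjusted p = 0.0331). The calls of Acta1 and Stard4 were lost without K314/315R replicate 2, and that of Tubb2b when any 1 of the 5 arrays was left out.

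The largest lower ratio at a measured probe was that of Vps13a, a lipid transport protein at membrane contacts, at 4.14, 3.74 and 4.08 in wild type and 2.00 and 1.00 in K314/315R. The log2 ratio was -2.49 ± 0.55 (adjusted p = 0.0454), but 3 other probes of the gene read -0.64, -0.08 and -0.01 and none passed the test. Smc2, a condensin subunit, was lower at 2 probes, by -1.77 (adjusted p = 0.0386) and -1.14 (adjusted p = 0.0377), while its other 2 probes differed by -0.34 and -0.48 without passing. Mier1, a chromatin corepressor, was lower at 2 probes, by -1.38 (adjusted p = 0.0241) and -0.86 (adjusted p = 0.0277), and its brightest probe read -0.07. For Cenpe, the kinetochore kinesin, Rps4x, a ribosomal protein, and Esco1, a cohesin acetyltransferase, the called probes were lower by -1.41, -1.43 and -1.47. Their other probes read -0.10 and -0.09 for Cenpe, -0.21 for Rps4x, and 0.17 and -0.35 for Esco1, and none passed. The calls of Vps13a, Cenpe, D5Ertd135e and Centa1 were lost when any 1 of the 5 arrays was left out. Those of Smc2 and Mier1 were lost without either K314/315R replicate or wild type replicate 1 or 2. Esco1 and Zfpn1a4 lost theirs without either K314/315R replicate or wild type replicate 2, and Rps4x and 5630401J11Rik without K314/315R replicate 2. The remaining members of the 12 were 5630401J11Rik (-1.74, adjusted p = 0.0128), Zfpn1a4, an Ikaros family factor (-1.56, adjusted p = 0.0161), D5Ertd135e (-1.44, adjusted p = 0.0391, with a second probe at 0.27, adjusted p = 0.548) and Centa1 (-1.40, adjusted p = 0.0425).

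At 70 probes called lower, no K314/315R array was well above background, and such probes bear a bound only. Plac8 was at least 1.68-fold lower in K314/315R (adjusted p = 0.0205) and was not well above background in KTR or pTV either. Zfp612 was at least 1.82-fold lower, Scfd1, a vesicle transport gene tested only through the wild type arrays at 3 h, at least 1.69-fold, 4930539N22Rik at least 1.15-fold and Pde8b, a cyclic AMP phosphodiesterase, at least 1.02-fold. The brightest Scfd1 probe read -0.03 (adjusted p = 0.954).

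The matrix metalloproteinases are secreted proteases with classical TNFα induction. Of 20 tested genes of the MMPs, TIMPs and ADAMTS proteases, 0 were called higher and 1 lower. The list does not hold Adamts3, which was called higher. Mmp13, a collagenase, read -0.45, -0.78 and -0.92 in wild type and 0.29 and 0.72 in K314/315R, and the log2 ratio was 1.22 (95% interval 0.49 to 1.95, 2.33-fold, adjusted p = 0.0819). Mmp10, a stromelysin, read -1.10, -1.63 and -1.41 in wild type and -0.73 and -0.21 in K314/315R, with a ratio of 0.91 (0.24 to 1.57, 1.88-fold, adjusted p = 0.145). Mmp3, the neighbouring stromelysin, differed by 0.80 (0.03 to 1.58, adjusted p = 0.269). In all 3 both mutant arrays lay above all wild type arrays, but the differences did not pass the adjusted test. In the whole list 6 members lay wholly above wild type (30%, beside 19% of all probes) and 3 below (15%, beside 17.2%). Mmp13 was not well above background on any pTV array, and Mmp10 in wild type exceeded its pTV level by 2.63. Both exceeded their wild type level before TNFα, by 1.42 and 1.39 (adjusted p = 0.0187 and 0.0128). In KTR they differed from wild type by 0.24 and -0.06, and neither passed. The member called lower was Mmp24, a membrane-type enzyme. It read -2.59, -3.18 and -4.80 in wild type, the last of which was close to the KTR, pTV and 0 h means of -5.18, -5.48 and -5.10. It was not well above background on either K314/315R array, and at least 2.71-fold lower (adjusted p = 0.0485). It was tested only because the wild type arrays at 3 h lay above background, so that this p is not independent of that choice. The call of Mmp24 was lost when either K314/315R array or wild type replicate 1 or 2 was left out.

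The promoters of Mmp10 and Mmp13 are shown because these genes head the protease list, with that of Cxcl10, a p65 target, beside them. None of these genes was called, and their ratios were not compared with each other. Whether the motifs bear on the ratios was not tested. The windows run from 250 bases before to 50 bases after the transcription start (RefSeq, build GRCm38.p6), 5′ to 3′ on the strand of the gene. Capitals mark matches to the AP-1 motif TGANTCA or to the κB consensus motif on either strand.
Mmp10, chr9:7502092-7502391, plus strand: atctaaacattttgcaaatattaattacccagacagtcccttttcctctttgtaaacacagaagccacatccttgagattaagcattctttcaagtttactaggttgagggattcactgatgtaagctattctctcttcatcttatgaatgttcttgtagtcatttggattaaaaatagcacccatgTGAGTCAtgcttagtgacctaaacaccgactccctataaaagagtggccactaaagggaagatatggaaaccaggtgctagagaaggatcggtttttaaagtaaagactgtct
Mmp13, chr9:7272264-7272563, plus strand: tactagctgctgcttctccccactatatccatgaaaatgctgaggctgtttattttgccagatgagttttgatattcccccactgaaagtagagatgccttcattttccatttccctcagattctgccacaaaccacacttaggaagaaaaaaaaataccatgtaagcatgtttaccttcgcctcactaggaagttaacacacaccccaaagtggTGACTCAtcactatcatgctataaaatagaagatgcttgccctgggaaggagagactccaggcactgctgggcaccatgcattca
Cxcl10, chr5:92348840-92349139, minus strand: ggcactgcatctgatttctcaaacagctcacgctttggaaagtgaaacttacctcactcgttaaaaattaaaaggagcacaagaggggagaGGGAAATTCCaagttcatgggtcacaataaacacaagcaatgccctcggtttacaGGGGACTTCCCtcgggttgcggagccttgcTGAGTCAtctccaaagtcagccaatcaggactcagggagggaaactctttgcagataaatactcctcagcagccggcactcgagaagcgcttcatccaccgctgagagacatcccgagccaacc
The Mmp10 and Mmp13 windows each held 1 AP-1 match, 63 and 35 bases before the start, and no match to the κB consensus. In the Cxcl10 window, κB matches began 159, 104 and 103 bases before the start, the last 2 overlapping, and 1 AP-1 match lay 74 bases before it. Over all 32851 windows of this table, 7.81% held an AP-1 match and 8.46% a κB match. Of the genes called higher, 22 had a window, and 3 held an AP-1 match (Lmo1, S100a16 and Spint1) and 4 a κB match (B930011P16Rik, listed as Dpp6, Smpdl3b, Thbs2 and Zfp185). Of 106 genes called lower with a window, 8 held an AP-1 match and 7 a κB match, and by gene the shares over the whole table were 8.97% and 9.55%.

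The other groups of TNFα-induced genes held no call. Of 19 tested chemokines 0 passed in either direction, with a median of 0.08. Cxcl10, which draws T cells, read 4.03 and 3.66 on the 2 wild type arrays with a value and 4.15 and 3.79 in K314/315R, a ratio of 0.13 (95% interval -0.35 to 0.61, adjusted p = 0.813). Ccl2, Ccl5, Ccl20 and Cxcl5 differed by -0.04, 0.13, 0.11 and 0.23. The chemokine with the lowest p was Ccl19, at -1.17 (adjusted p = 0.199), and it was not above background in K314/315R. Of 14 tested interleukins, colony stimulating factors and TNF family genes on the list, which does not hold Tnfsf12, 0 passed. Il6 read 2.67, 2.22 and 2.39 in wild type and 2.96 and 3.16 in K314/315R (0.63, 95% interval 0.04 to 1.23, adjusted p = 0.257), and Csf3, which encodes the granulocyte factor G-CSF, differed by 0.85 (adjusted p = 0.342). Both were above all wild type arrays without passing the test. In this list 3 members lay wholly above wild type (21.4%, beside 19% of all probes) and 2 below (14.3%, beside 17.2%). The list median was -0.12, which turned to 0.15 with the arrays centred on their median.

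**Figure D4:**
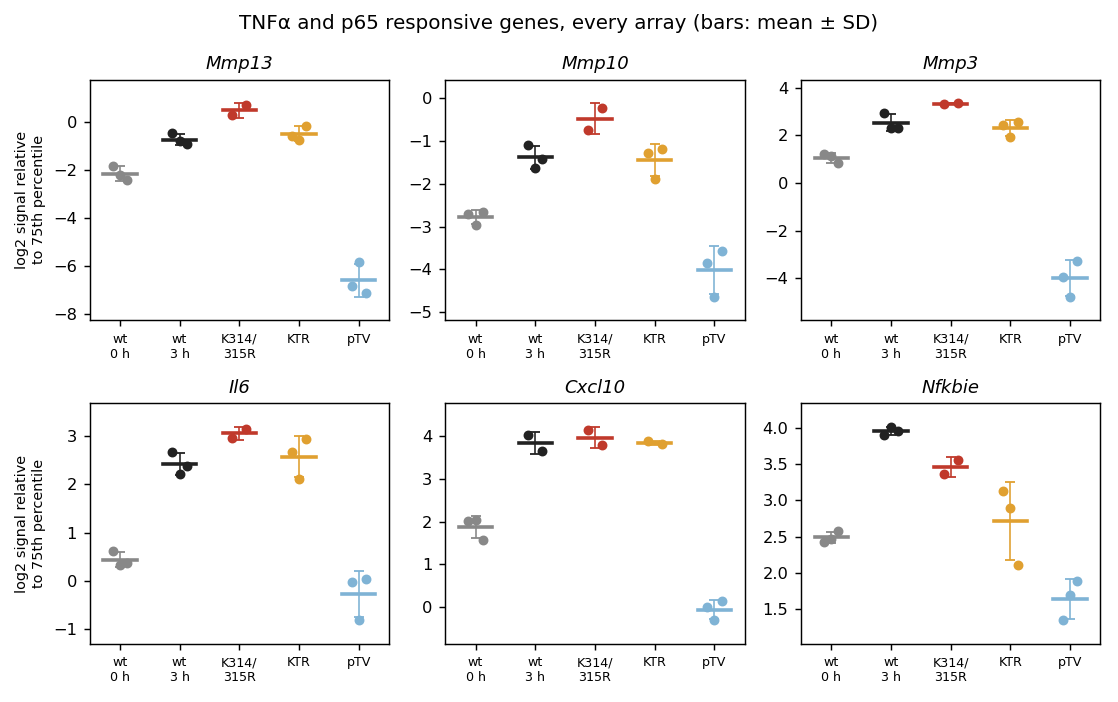
Each point is 1 array, with scaled log2 signal (0 is the 75th percentile) on the y axis, and bars with whiskers give the mean ± SD of each group for 6 genes, chosen after their values were seen, that were higher in wild type at 3 h than in pTV. K314/315R points lie above all wild type points at 3 h for Mmp13, Mmp10, Mmp3 and Il6, overlap them for Cxcl10 (1 wild type and 1 KTR array had no value) and lie below them for Nfkbie, and none of these 6 differences passed the test.

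Of 17 tested NF-κB subunits and feedback inhibitors, 0 were called. Nfkbie, the gene of IκBε, had the lowest p in this list and read 3.90, 4.02 and 3.95 in wild type and 3.36 and 3.56 in K314/315R. Its ratio of -0.50 (95% interval -1.03 to 0.04, adjusted p = 0.329) did not pass. Nfkbia, the gene of IκBα, differed by 0.17, Tnfaip3, which encodes A20, by 0.24 and Nfkb1, the p105 precursor of p50, by -0.19. Of 17 tested acute phase and complement genes, 0 were called. Saa3, C3 and Lcn2, all of which were higher in wild type than in pTV past the threshold, differed between K314/315R and wild type by 0.18, 0.11 and -0.09. Cfi, complement factor I, had the lowest p in the list (adjusted p = 0.0584) and did not pass. It was not well above background on either K314/315R array, which leaves only a bound, of 1.46-fold lower. Cfb, complement factor B, read 0.46, 0.18 and -0.23 in wild type and -0.38 and -0.15 in K314/315R (-0.40, 95% interval -0.95 to 0.15, adjusted p = 0.46). The 95% interval for C3 was -0.41 to 0.64 and that for Nfkbia -0.11 to 0.44, so differences of these sizes remain possible.

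Interferon-inducible genes, most of them antiviral effectors, lay on the low side as a list but none was called. Of 40 tested, 36 had a ratio below 0, with a median of -0.33, and the arrays of the lines did not overlap for 5 below wild type (12.5%, beside 17.2% of all probes). The 2 K314/315R arrays differed among themselves: relative to the wild type mean of each gene, the list medians were -0.06 and -0.62, beside 0.23, 0.23 and -0.44 on the wild type arrays. The list median stayed below 0 in every one of 17 settings, from -0.62 to -0.05. Phf11, the member with the lowest p, read -0.11, 0.14 and -0.76 in wild type and -0.73 and -1.65 in K314/315R (-0.95, adjusted p = 0.177). Gbp5, a guanylate-binding GTPase of inflammasome activation, differed by -0.92 (adjusted p = 0.41), its relative Mpa2l by 0.09 (adjusted p = 0.951) and Mx1, an inhibitor of influenza viruses, by 0.62 (adjusted p = 0.578). The 3 Gvin1 probes differed by -0.05, -0.13 and -1.12, none of which passed. Of 18 tested MHC class I and antigen processing genes 15 were below 0 without a call, with a median of -0.19 that turned to 0.09 with the arrays centred on their median. H2-Q8 had the lowest p (-0.88, adjusted p = 0.122), H2-K1 differed by -0.43 and Tap1, the peptide transporter, by -0.10.

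Calls in the remaining lists were few. Acta1 was the 1 call among 27 contractile genes, whose median was 0.09. Cald1, caldesmon, differed by -0.44 with an adjusted p of 0.0364 but did not reach the ratio, and Acta2 and Tagln, smooth muscle actin and transgelin, differed by -0.14 and 0.02. Stard4 was the 1 call among 29 genes of cholesterol and fatty acid synthesis, whose median was 0.05. None of 35 cell cycle and replication genes was called, and the median was -0.09. Ccnd2, cyclin D2, had the lowest p (-0.46, adjusted p = 0.0635), and Mki67 and Pcna differed by -0.07 and 0.01. Among 8 tested genes of the IGF axis, Igfbp2 read -2.11, -2.62 and -2.68 in wild type and -1.58 and -0.75 in K314/315R, a ratio of 1.30 (95% interval 0.60 to 2.01, adjusted p = 0.0613) that did not pass, and Igf1r differed by -0.25.

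The lists of TGF-beta family signalling (26 tested, median 0.09), AP-1 and immediate early factors (22 tested, 0.05), heat shock and unfolded protein response (19 tested, 0.09) and glycolysis and hypoxia response (23 tested, 0.18) held 0 calls each. The medians of the AP-1, IGF, MHC class I, acute phase, cell cycle, cell death, chemokine, cholesterol and cytokine lists changed sign under 1 to 4 of 17 settings, so no direction is given for them. Jun and Fosl1, whose products bind AP-1 motifs, differed by 0.05 and 0.04, and Fosl2 by 0.42 (adjusted p = 0.0996). In the glycolysis and hypoxia list the arrays did not overlap for 10 of 23 genes above wild type (43.5%, beside 19% of all probes). Among them were Pfkl, a phosphofructokinase, at 0.42 (adjusted p = 0.146) and Bnip3, a mitophagy receptor, at 0.46 (adjusted p = 0.115). The list member with the lowest p, Car9, went the other way (-1.10, adjusted p = 0.0928). It was the 1 member that lay wholly below wild type. Of 14 tested enzymes that acetylate, deacetylate or methylate p65, none was called. Ep300, which encodes p300, differed by -0.30 (adjusted p = 0.172), Hdac3 by 0.02, Sirt1 by 0.07 and Setd7, a lysine methyltransferase, by 0.33 (adjusted p = 0.12).

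**Figure D5:**
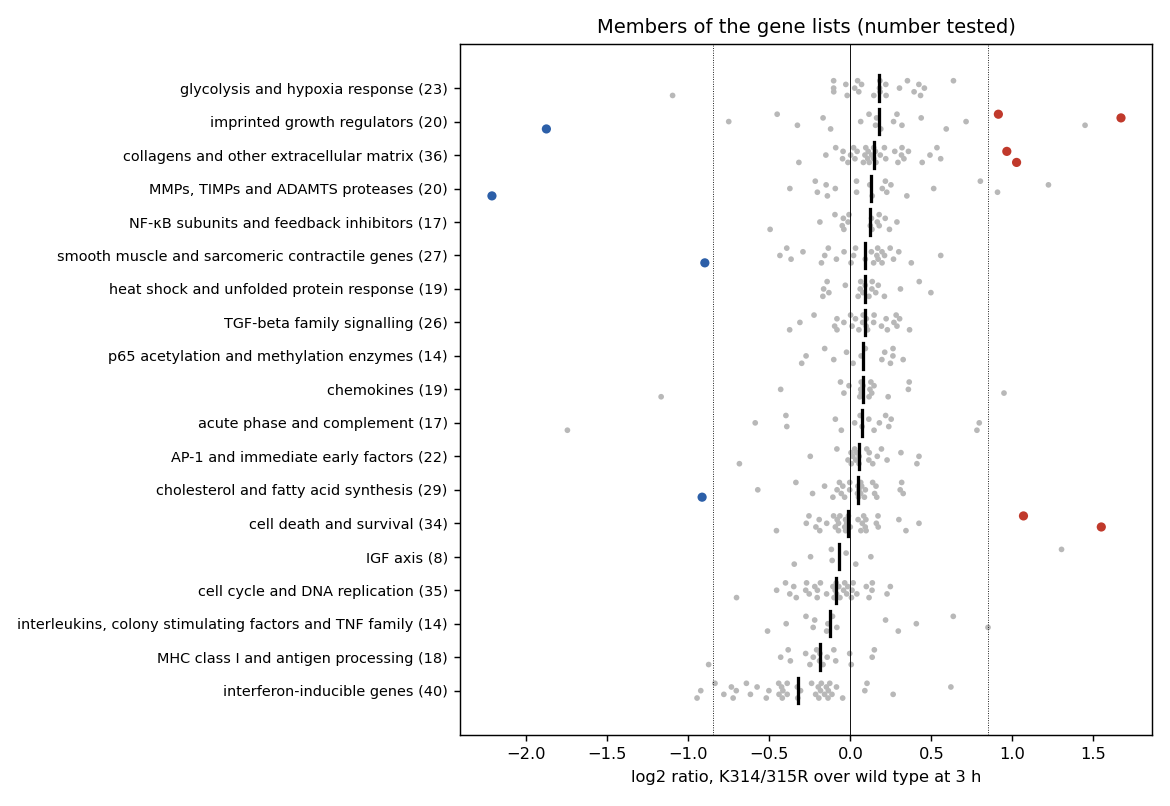
Each point is the brightest tested probe of 1 gene, placed by its log2 ratio of K314/315R over wild type at 3 h, in rows of gene lists with the number tested in parentheses and a black bar at the list median. Red and blue points are the members called higher and lower, dotted lines mark the ratios at which probes were called, and list medians run from -0.33 for the interferon-inducible genes to 0.18 for glycolysis and hypoxia.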

How the data were processed

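Total RNA of 14 cultures was hybridised to 1-colour Agilent arrays, 1 array per culture. Per the labels, the authors scanned them and used Agilent Feature Extraction 9.1, and the deposited values used here are processed signal intensities, background-subtracted per spot by that software. The authors' later step, Rosetta Resolver with default settings, could not be repeated. Arrays carry no counts, so their number limits the precision, and the p-values measure the spread between cultures that the labels call biological replicates, whose RNA was isolated on different days. The labels speak of 3 replicates per group, and 2 K314/315R arrays were analysed here.

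Non-control probes were averaged over spots, log2-transformed and reduced by the 75th percentile of their array, and flagged outlier spots were left out. A probe was tested where every array of at least 1 group lay well above background. All 14 arrays entered 1 linear model with 5 groups (limma 3.58.1, R 4.3.3, two-sided moderated test, Benjamini-Hochberg over 22172 probes). A probe was called at a ratio above 1.8, or below its inverse to 3 decimals, with an adjusted p under 0.05. Gene names are those of the array, and 22951 probes matched the RefSeq table by accession, 5141 of them under another current symbol. Per gene list, the brightest tested probe of each gene was used.

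Named genes were the 12 highest and 12 lowest called probes measured on all 5 arrays, up to 5 in each direction with a bound only, by adjusted p, both among array names that are gene names in the RefSeq table, the called members of each list or its member with the lowest p, and genes named by the study. Other list members were chosen after their values were seen. The comparison, the lists and the named genes were chosen with earlier results of these data known. In simulated data with the same design and 21589 probes, 69 of 100 probes changed by 1.0 and 92 of 100 changed by 1.5 on the log2 scale were recovered, with 9 false calls. These counts cannot show how many of the real calls stem from the slide, because slide and mutant coincide.

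Alternatives were normexp (offset 50, with flagged local backgrounds replaced by the array median), quantile normalization, other scaling points, the deposited matrix values, other filters, the 5 arrays alone, replicate and slide blocks, another variance prior, each array left out and, chosen after seeing the data, cyclic loess. The deposited matrix held the same signals times 1 factor per array, from 0.837 to 1.20. This held within 1% for 99.7% to 99.8% of the probes of each array.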

Additional observations from a re-analysis of the deposited data

Results flagged for a closer look

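K314/315R differed from KTR, which lacks 1 further lysine, by more than about 1.8-fold for 29 of the named probes in a direct contrast of both mutants in the same fit (limma, adjusted p from 0.00312 to 0.05), and the values below are log2 ratios of K314/315R over KTR. Over all tested probes 109 (0.492%) were called higher and 457 (2.06%) lower in this contrast. Both K314/315R arrays lay on a slide without KTR, so slide and line cannot be told apart. Both contrasts share the K314/315R arrays.

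Higher in K314/315R than in KTR were the growth regulators Cdkn1c (1.09) and Igf2 (1.18) and the death-associated kinases Ripk3 (1.06) and Aatk (1.99). The same held for Vnn1 (1.75), Adamts3 (1.43), Nsg1 (1.12), Thbs2 (1.60), Aldh1l1 (2.33), Hrasls3 (2.31), B930011P16Rik (2.77) and 2600011E07Rik (2.28). Hrasls3, B930011P16Rik and 2600011E07Rik were not well above background on any KTR array. They were tested only because the K314/315R arrays lay above background, so their p-values are not independent of that choice. Plac8 (0.96) passed the contrast but was not well above background on any array of either mutant, so its ratio gives no direction. None of these 4 ratios has a measured size. Lower in K314/315R than in KTR were Tnfsf12 (-1.46), Tubb2b (-1.47), Vps13a (-3.58), Smc2 (-2.09), Cenpe (-1.63), Esco1 (-1.45), Rps4x (-1.38) and Mier1 (-1.27). Further lower probes were 5630401J11Rik (-1.97), Zfpn1a4 (-1.66), D5Ertd135e (-1.66) and Centa1 (-1.89), and the second probe of 5730559C18Rik (-1.20). Peg10 (-1.77), Scfd1 (-1.27) and 4930539N22Rik (-1.71) passed the contrast but were not well above background in K314/315R, so these ratios have no measured size. Peg10 and Scfd1 were well above background on 1 KTR array each. 4930539N22Rik was so on no KTR array, so its ratio gives no direction.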

How the results depend on the processing

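The counts of probes moved, while no called value of a named gene changed sign. Without adjustment of p, 85 probes were higher and 685 lower. Normexp gave 17 and 48, no filter on dim probes 12 and 48, probes well above background on all arrays 22 and 129, the 5 arrays alone 3 and 6, and slide as a random block 15 and 70. Quantile normalization gave 66 lower, and centring on the array median 242 higher and 127 lower. Leaving out 1 array gave 3 to 25 higher and 15 to 177 lower. The 3 higher with the 5 arrays alone were Aatk, Hrasls3 and Pdzrn4, named after their values were seen.

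A replicate block in the fit gave 73 higher and 520 lower probes. In the other 4 groups the replicate number is also the slide number, while both K314/315R arrays share 1 slide, so numbers and slides do not pair them with wild type. The labels do not say that a number pairs cultures across lines, and the deviations of same-numbered arrays correlated by 0.31 and 0.13, with 1 independent deviation in K314/315R.

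For named genes against wild type, 1106 recomputed values kept their call or stayed uncalled. A further 269 lost the call, 23 gained it and 0 changed sign among called values. Uncalled ratios did change sign for some genes, such as Mpa2l (-0.17 to 0.36) and Cxcl10 (-0.05 to 0.45). Tnfsf12 was called in all 17 settings. What moved the counts was not tested. Of the probes called lower, 133 of 231 were well above background on all 5 arrays, and the size of the others is limited by their low signal.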
